A study of Mus musculus with 28 samples.

Results

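Stress lasting 3 days was compared with no stress in the ventromedial prefrontal cortex of female mice that had received a control virus carrying LacZ. The comparison takes 14 of the 28 libraries of the series, 7 stressed and 7 unstressed, chosen by the virus and treatment in their labels, with 1 mouse per library. All 14 mice carried the LacZ virus, and their tissue was punched from the region where the virus was expressed. The stressed mice went through the procedure abbreviated sCVS in the labels, and the unstressed mice did not. Strain, age, the viral vector and its promoter are not given in the sources used here. The other 14 libraries, from mice given a virus labelled as a Slit1 knockdown, serve for comparison only. Slit1 itself averaged 25.9 CPM without and 18.2 CPM with stress in them and 24.4 and 19.8 CPM in the LacZ libraries, so "knockdown virus" is used here as the label's name. CPM, the unit of all levels given, is the count of a gene relative to the scaled total of its library.

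Stress triggers the release of glucocorticoids, steroid hormones that enter the brain and act through receptors which switch genes such as Fkbp5, Sgk1 and Tsc22d3. The prefrontal cortex helps to control emotion and the hormonal stress response, and its excitatory synapses use glutamate receptors of the AMPA, NMDA, kainate and metabotropic classes. T cells are rare in healthy brain tissue. Cytotoxic T cells carry CD8 and kill target cells with granzymes, and lymphocytes that respond to an antigen divide and turn on the genes of the cell cycle.

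Depth was similar in both groups. Total counts were 38.4 ± 3.37 M (SD, n = 7) in stressed and 38.1 ± 3.48 M (SD, n = 7) in unstressed libraries (two-sided exact permutation p = 0.866). The share of counts from mitochondrial genes was 6.40 ± 2.45% and 5.78 ± 2.13% (SD, n = 7 each, exact permutation p = 0.617). Genes detected and the share of the 100 most abundant genes had exact permutation p of 0.647 and 0.770, and all 4 measures had an exact permutation p of 0.866 after adjustment over the 4. The smallest p that 7 against 7 libraries allow in this permutation test is 5.83e-04. Libraries also differed in how levels followed the GC content of genes, with slopes from -0.513 to 0.757. The stressed library titled 10, replicate 4 of its group, was low in many, though not all, transcripts of T cells, so the main results are given with and without it. It was singled out with its T cell values known, so higher T cell values without it follow from that choice. In bulk tissue, fewer cells of a type and less RNA per cell cannot be told apart. Markers of excitatory neurons were present in each of the 14 libraries, with summed levels from 1411 to 2574 CPM.

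No gene passed an adjusted p under 0.05, with all 14 libraries (0 of 19171 genes, 0%) or without stressed replicate 4 (0 of 19320, 0%). The test was edgeR's quasi-likelihood test, and its smallest Benjamini-Hochberg adjusted p was 1.00. DESeq2 and voomWithQualityWeights also called 0 genes. At an unadjusted p under 0.05, edgeR had 31 genes higher with stress (0.162% of those tested) and 46 lower (0.24%), 77 in all, where DESeq2 had 123 and voomWithQualityWeights 681. Without stressed replicate 4 edgeR had 143 higher (0.74%) and 71 lower (0.367%), 214 in all, and 55 genes were in both sets. Chance alone would put a fraction of about 0.05 of the genes at that level, and these edgeR shares lie below it. An unadjusted p under 0.05 therefore does not by itself set a gene apart here. With all 14 libraries no gene had stressed and unstressed values that did not overlap, in either direction (0% and 0%). The log2 fold change of stress over no stress lay above 0 for 45.5% of genes, with a median of -0.014, and without stressed replicate 4 for 43.2%, with a median of -0.030. The values of gene lists given next are to be read against these shares. Members of a list were measured in the same libraries and are not independent. A few libraries can therefore put most of a list on the same side of 0. No member of any list passed an adjusted p under 0.05, so "above" and "below" describe the side of 0 on which a value lies.

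Most genes of cell division had log2 fold changes above 0, given below, and none passed an adjusted p under 0.05. The sequences before the start of 3 of them are shown because genes of this kind are known to share promoter elements. One is CCAAT, bound by the factor NF-Y. The other is the cell cycle homology region TTTGAA, bound by a complex that silences such genes in cells that do not divide. Shown are the 250 bases before the RefSeq start (build GRCm38.p6), 5′ to 3′ on the strand of the gene, for Kif11 (chr19:37376132-37376381, plus strand), Cks1b (chr3:89418292-89418541, minus strand) and Mki67 (chr7:135716380-135716629, minus strand). Capitals mark CCAAT and TTTGAA or their reverse complements ATTGG and TTCAAA.
Kif11: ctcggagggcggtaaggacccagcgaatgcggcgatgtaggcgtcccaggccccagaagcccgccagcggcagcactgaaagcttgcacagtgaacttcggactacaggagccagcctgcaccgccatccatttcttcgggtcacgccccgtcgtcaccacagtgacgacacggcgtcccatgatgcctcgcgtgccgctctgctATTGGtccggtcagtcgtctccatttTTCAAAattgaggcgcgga
Cks1b: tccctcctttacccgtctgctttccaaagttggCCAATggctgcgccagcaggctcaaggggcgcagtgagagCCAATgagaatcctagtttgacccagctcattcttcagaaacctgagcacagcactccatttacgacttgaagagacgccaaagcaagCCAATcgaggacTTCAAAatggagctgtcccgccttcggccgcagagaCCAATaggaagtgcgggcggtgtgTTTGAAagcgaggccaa
Mki67: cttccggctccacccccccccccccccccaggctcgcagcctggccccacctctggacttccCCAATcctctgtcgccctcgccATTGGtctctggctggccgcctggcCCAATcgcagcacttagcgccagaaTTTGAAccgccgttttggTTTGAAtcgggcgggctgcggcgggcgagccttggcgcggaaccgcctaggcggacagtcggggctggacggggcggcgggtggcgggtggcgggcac
Kif11 held 1 of each element, Cks1b held 4 CCAAT and 2 TTTGAA, and Mki67 held 3 and 2. Kif23 held 1 CCAAT and 0 TTTGAA, and Cep55 held 0 of both. Counting both strands, CCAAT was in 45 of the 64 cell cycle promoters found by symbol (70.3%) against 34.5% of 27025 promoters of the same length. TTTGAA was in 16 of the 64 (25%) against 16.3%, and both were in 12 (18.8%) against 5.73%. Of 15 T cell promoters found, 3 held CCAAT (20%), 4 held TTTGAA (26.7%) and 2 held both (13.3%). A match of these letters describes the sequence and shows no binding.

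Most cell cycle transcripts had log2 fold changes above 0, none of which passed an adjusted p under 0.05, and stressed replicate 4 had the lowest level of each of the 4 genes given first. Kif11 (ENSMUSG00000012443, GRCm38 chromosome 19, 37376403 to 37421859), the kinesin motor that pushes spindle poles apart, had 0.205, 0.815 and 1.88 CPM as the lowest, median and highest of unstressed libraries and 0.181, 2.20 and 6.82 CPM of stressed ones. Stressed replicate 4 was the lowest of all 14, 4 of the other 6 stressed libraries lay above each unstressed one, and the groups overlapped. The log2 fold change of Kif11 was 1.62 ± 0.62 (SE), or 1.83 ± 0.58 without stressed replicate 4, both at an unadjusted p under 0.05 and an adjusted p = 1.00. Mki67, the Ki-67 gene that marks dividing cells, ran from 18.4 over 44.5 to 99.3 CPM (lowest, median, highest) without stress and from 6.89 over 79.6 to 118 CPM with stress. Stressed replicate 4 was again lowest, and the log2 fold change was 0.48 ± 0.44 (SE), or 0.68 ± 0.37 without that library, neither at an unadjusted p under 0.05. Cks1b, a subunit of cyclin-dependent kinases, ran from 0.948 over 1.63 to 2.42 CPM without and from 0.816 over 2.47 to 3.55 CPM with stress, with the lowest value in stressed replicate 4. It differed by 0.60 ± 0.29 (SE), or 0.75 ± 0.26 without that library, both at an unadjusted p under 0.05. Cep55, which acts in the final separation of daughter cells, ran from 2.29 over 3.47 to 9.0 CPM and from 0.295 over 8.35 to 15.6 CPM, again lowest in stressed replicate 4. Its difference was 0.79 ± 0.48 (SE), or 1.00 ± 0.37 without it, the second at an unadjusted p under 0.05. Leaving out stressed replicate 5 instead took Mki67 to 0.31 and Cep55 to 0.54.

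Nearly the whole cell cycle list, which holds Kif11 and Mki67 but neither Cks1b nor Cep55, lay on one side. Of 77 members tested, 75 had a log2 fold change above 0 with a median of 0.45, against 45.5% and -0.014 over all genes, and 1 was at an unadjusted p under 0.05. Without stressed replicate 4, 76 of 77 lay above 0 with a median of 0.63, and 16 were at that level. That library had the lowest summed level of the list, so higher values without it follow from leaving it out. The median stayed above 0 in each of 25 alternatives, from 0.15 with surrogate variables to 0.64 without unstressed replicate 4. The 2 members below 0 were Pola1, the catalytic subunit of the polymerase that primes replication, at -0.06 ± 0.31 (SE), and E2f1, a transcription factor of the S phase, at -0.0036 ± 0.45. Kif23, a motor of cytokinesis, had 0.51 ± 0.32, or 0.67 ± 0.29 without stressed replicate 4. The summed level of the list ran from 501 over 617 to 1266 CPM without stress and from 293 over 1144 to 1656 CPM with stress. Stressed replicate 4 was lowest of all 14, the other 6 stressed libraries had 785 CPM or more, and 4 unstressed libraries lay below them. Stressed replicates 1 and 6, at 785 and 919 CPM, lay below the other 3 unstressed libraries. Title numbers, which no label calls a batch, ran to 10 in 4 stressed and 5 unstressed mice and above 20 in 3 and 2. The log2 difference of the summed level was 0.05 in the first set, 0.52 there without stressed replicate 4, and 0.65 in the second.

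**Figure D1:**
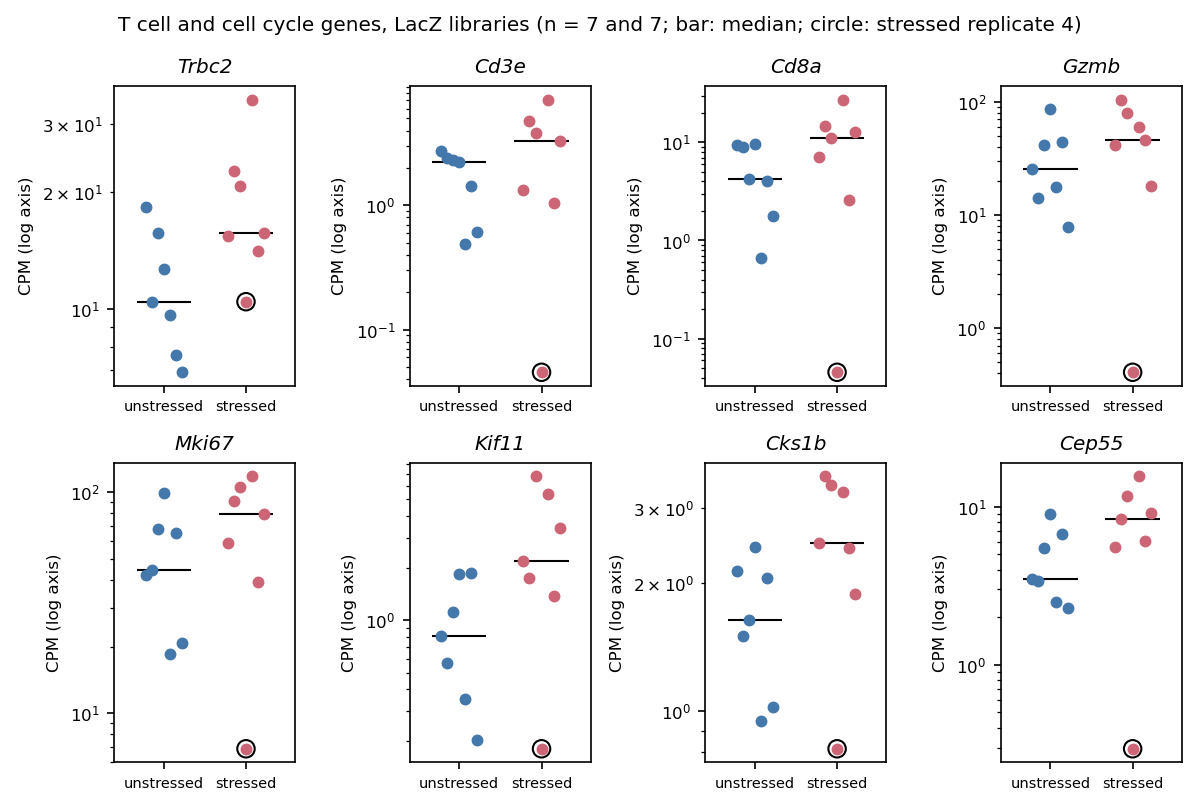
CPM on a log axis of 4 T cell genes (Trbc2, Cd3e, Cd8a, Gzmb) and 4 cell cycle genes (Mki67, Kif11, Cks1b, Cep55) in each of the 7 unstressed and 7 stressed LacZ libraries, with the group median as a bar. Stressed replicate 4, circled, is the lowest stressed library in each panel, and the groups overlap in each.

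Most T cell transcripts also had log2 fold changes above 0, and none passed an adjusted p under 0.05. Trbc2 (ENSMUSG00000076498, GRCm38 chromosome 6, 41546730 to 41548352), a constant region of the T cell receptor beta chain, had 6.89, 10.5 and 18.4 CPM as the lowest, median and highest without stress and 10.5, 15.8 and 34.6 CPM with stress. Stressed replicate 4 was the lowest stressed library, near the unstressed median. The log2 fold change was 0.72 ± 0.27 (SE), or 0.82 ± 0.27 without that library, both at an unadjusted p under 0.05 and an adjusted p = 1.00. Cd8a, a chain of the CD8 co-receptor, ran from 0.667 over 4.26 to 9.69 CPM without stress and from 0.0453 over 11.2 to 27.3 CPM with stress. The next lowest stressed library after replicate 4 had 2.60 CPM, and 4 stressed libraries lay above each unstressed one. Its difference was 0.95 ± 0.73 (SE), or 1.18 ± 0.63 without stressed replicate 4, neither at an unadjusted p under 0.05. Cd3e, a signalling chain of the T cell receptor complex, of whose span 43.7% lies in other genes, ran from 0.492 over 2.23 to 2.76 CPM and from 0.0453 over 3.31 to 7.09 CPM. Gzmb, the gene of granzyme B, ran from 7.75 over 25.3 to 86.4 CPM and from 0.408 over 45.4 to 104 CPM, with a log2 fold change of 0.55 ± 0.66 (SE), or 0.77 ± 0.55 without stressed replicate 4, and of -0.21 with surrogate variables. In both genes the stressed median was higher and the ranges overlapped widely. Themis, which acts in T cell selection, had 0.98 ± 0.59 (SE), or 1.20 ± 0.50 without stressed replicate 4, where it stood at 1.61 CPM against a stressed median of 63.4 CPM. Sh2d1a, an adaptor of lymphocyte signalling, had 0.98 ± 0.50, or 1.19 ± 0.41 without it. Leaving out stressed replicate 5, the highest library of Cd8a, Cd3e, Themis and Sh2d1a, gave 0.53, 0.44, 0.60 and 0.61 in that order. Gzmb had 0.27 without stressed replicate 2 and 0.99 without unstressed replicate 4.

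In the T cell list 29 of 30 members tested lay above 0 with a median of 0.54, and without stressed replicate 4 29 of 30 with a median of 0.75. The number at an unadjusted p under 0.05 was 1 with all libraries and 4 without it. Sh2d1a is not in the list. The member below 0 with all 14 libraries was Bcl11b, a factor that cortical neurons also express, at -0.08 ± 0.25 (SE). Cytotoxic lymphocyte genes lay above 0 in 19 of 19, with a median of 0.35, or 0.57 without stressed replicate 4. Over 25 alternatives the T cell median stayed between 0.16 and 0.79 and the cytotoxic one between 0.03 and 0.63, the low values with surrogate variables. Klrc1, an inhibitory receptor of killer cells, had 0.95 ± 0.66 (SE), or 1.17 ± 0.55 without that library, and Gzmk, another granzyme gene, 0.39 ± 0.27, against 0.50 and 0.11 without stressed replicate 5. The summed level of the T cell list ran from 236 over 469.9 to 584 CPM without stress and from 216 over 587 to 876 CPM with stress. Low sums were not confined to stressed replicate 4, since unstressed replicates 5 and 7 had 236 and 245 CPM, and stressed replicates 1 and 6 lay below the unstressed median with 464 and 364 CPM. Of the 216 CPM in stressed replicate 4, 129 CPM were Thy1 and 44.3 CPM Bcl11b, which neurons also express, and no member was at 0 there. Unstressed replicates 5 and 7 had 82.1 and 121 CPM of Bcl11b. They had 0.667 and 1.77 CPM of Cd8a against 0.0453 CPM in stressed replicate 4, and 12.5 and 17.9 CPM of Themis against 1.61 CPM. For Trbc2 they had 9.69 and 6.89 CPM against 10.5 CPM there. The sums thus do not show that these libraries were alike in T cell transcripts. Red blood cell genes, markers of blood in the tissue, had 5 of 6 members above 0 with a median of 0.47, and 6 of 7 with 0.57 without stressed replicate 4. The median stayed between 0.16 and 0.76 over the 25 alternatives, and under the knockdown virus it was -0.08. Their summed level ran from 31.9 over 37.8 to 62.1 CPM without and from 29.5 over 47.2 to 104 CPM with stress, highest in stressed replicate 7, lowest in stressed replicate 5 and 47.2 CPM in stressed replicate 4. Their part in the T cell values was not tested. In the cytotoxic list stressed replicate 4 stood at 13.6 CPM against 56.7 to 409 CPM in the other 13, and Eomes, a factor of killer cells, was the 1 member at 0 there. The log2 difference of the T cell sum was 0.10 in titles to 10, 0.48 there without stressed replicate 4, and 0.82 in titles above 20. For Cd8a and Gzmb the difference in mean log2 CPM in titles to 10 was -0.57 and -0.57 with stressed replicate 4 and 1.13 and 1.24 without it.

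Other lymphoid transcripts were scarce. Ighg2b, the constant region of an antibody heavy chain, had 0.000, 0.0990 and 0.570 CPM as the lowest, median and highest without stress and 0.0227, 0.453 and 2.35 CPM with stress, with stressed replicate 4 the lowest stressed library. The log2 fold change was 2.01 ± 0.84 (SE), or 2.22 ± 0.82 without it and 1.21 without stressed replicate 1. Traj25, a joining segment of the T cell receptor alpha chain, had medians of 0.0418 and 0.180 CPM. B and plasma cell markers had 10 of 12 members above 0 with a median of 0.15, which was 0.31 without stressed replicate 4 and -0.06 with voomWithQualityWeights. Sdc1, a plasma cell marker, had 0.69 ± 0.60 (SE), or 0.18 without stressed replicate 2, and Ighd, the constant region of surface IgD, -0.11 ± 0.78.

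Genes of antigen presentation lay above 0, though their median rested on 1 library. H2-M2 (ENSMUSG00000016283, GRCm38 chromosome 17, 37480851 to 37483552), a non-classical MHC class I gene, had 0.0681, 0.142 and 0.188 CPM as the lowest, median and highest without stress and 0.000, 0.379 and 0.573 CPM with stress. It was listed at 0 in stressed replicate 4, and the other 6 stressed libraries lay above all 7 unstressed ones. Without that library it was the 1 gene whose groups did not overlap with stress higher (0.00518% of genes), and there was none with stress lower (0%). Of the 1716 splits of these libraries into 6 and 7, 1 sets the groups apart in this direction. Chance alone would thus give a larger share of genes than that seen, and the missing overlap does not set H2-M2 apart. H2-M2 differed by 1.41 ± 0.51 (SE), or 1.64 ± 0.41 without stressed replicate 4, the smallest p of that comparison, with an adjusted p = 1.00. H2-Q7, a class Ib gene, had 0.55 ± 0.44, or 0.23 without stressed replicate 2. In the MHC list 25 of 25 members lay above 0 in both comparisons, with medians of 0.27 and, without stressed replicate 4, 0.47. The median was -0.11 without stressed replicate 2, -0.19 with surrogate variables and -0.35 with voomWithQualityWeights. Summed levels had group medians of 926 CPM without and 786 CPM with stress, lower with stress against the sign of the list median, while stressed replicates 2 and 1 were the highest of all at 2476 and 1622 CPM.

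Interferon-induced genes turned with single libraries and settings. The list had 33 of 41 members above 0 with a median of 0.14, and 41 of 41 with a median of 0.30 without stressed replicate 4. The median was -0.05 with surrogate variables and -0.37 with voomWithQualityWeights. The summed level in stressed replicate 4 was 625 CPM against 1227 to 9069 CPM in the other 13. Isg15, a ubiquitin-like interferon-induced protein, ran from 1.98 over 7.99 to 14.3 CPM without stress and from 1.86 over 5.28 to 46.8 CPM with stress. Its log2 fold change of 1.05 ± 0.70 (SE) came with a lower stressed median, as stressed replicates 1 and 2 had 46.8 and 46.2 CPM and the other 5 lay within the unstressed range or below it. Iigp1, an interferon-induced GTPase, had medians of 1223 and 707 CPM and -0.13 ± 0.63, and Ifi44, also induced by interferon, -0.07 ± 0.61. Without stressed replicate 4 they had 0.09 ± 0.55 and 0.14 ± 0.58.

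Cytokine, myeloid and reactive astrocyte lists also had medians above 0, which shrank or turned without a single library or in another test. Cytokines, chemokines and acute phase genes had 27 of 33 members above 0 with a median of 0.33, or 0.52 without stressed replicate 4 and -0.01 without stressed replicate 2. Il12b, a cytokine subunit that drives T helper responses, ran from 0.375 over 0.948 to 1.36 CPM and from 0.113 over 1.72 to 3.10 CPM, with 0.73 ± 0.44 (SE), or 0.94 ± 0.36 without stressed replicate 4, its lowest library, and 0.48 without stressed replicate 3. The chemokine gene Ccl3 had 0.73 ± 0.49. Microglial markers lay above 0 in 15 of 16 with a median of 0.25, or 0.34 without stressed replicate 4 and 0.002 without stressed replicate 2. Fcrls, a receptor-like gene of microglia, was highest in stressed replicate 4 at 24.4 CPM, so its 0.56 ± 0.47 (SE) was 0.22 ± 0.47 without it. Complement and phagocytosis genes had 27 of 33 members above 0 (median 0.28) and dendritic cell and macrophage genes 16 of 19 (median 0.28), with medians of 0.42 and 0.42 without stressed replicate 4 and -0.12 and -0.04 without stressed replicate 2. Neutrophil and monocyte genes had 13 of 18 above 0 (median 0.30) and reactive astrocyte genes 14 of 18 (median 0.20), with medians of 0.52 and 0.33 without stressed replicate 4 and -0.19 and -0.43 by voomWithQualityWeights. Reactive astrocyte genes also turned, to -0.12, without stressed replicate 2, whereas no omitted library turned the neutrophil and monocyte median. Astrocyte markers at rest had 7 of 19 above 0 (median -0.03, or -0.10 without stressed replicate 4), and endothelial markers 13 of 20 (median 0.04, or 0.09).

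**Figure D2:**
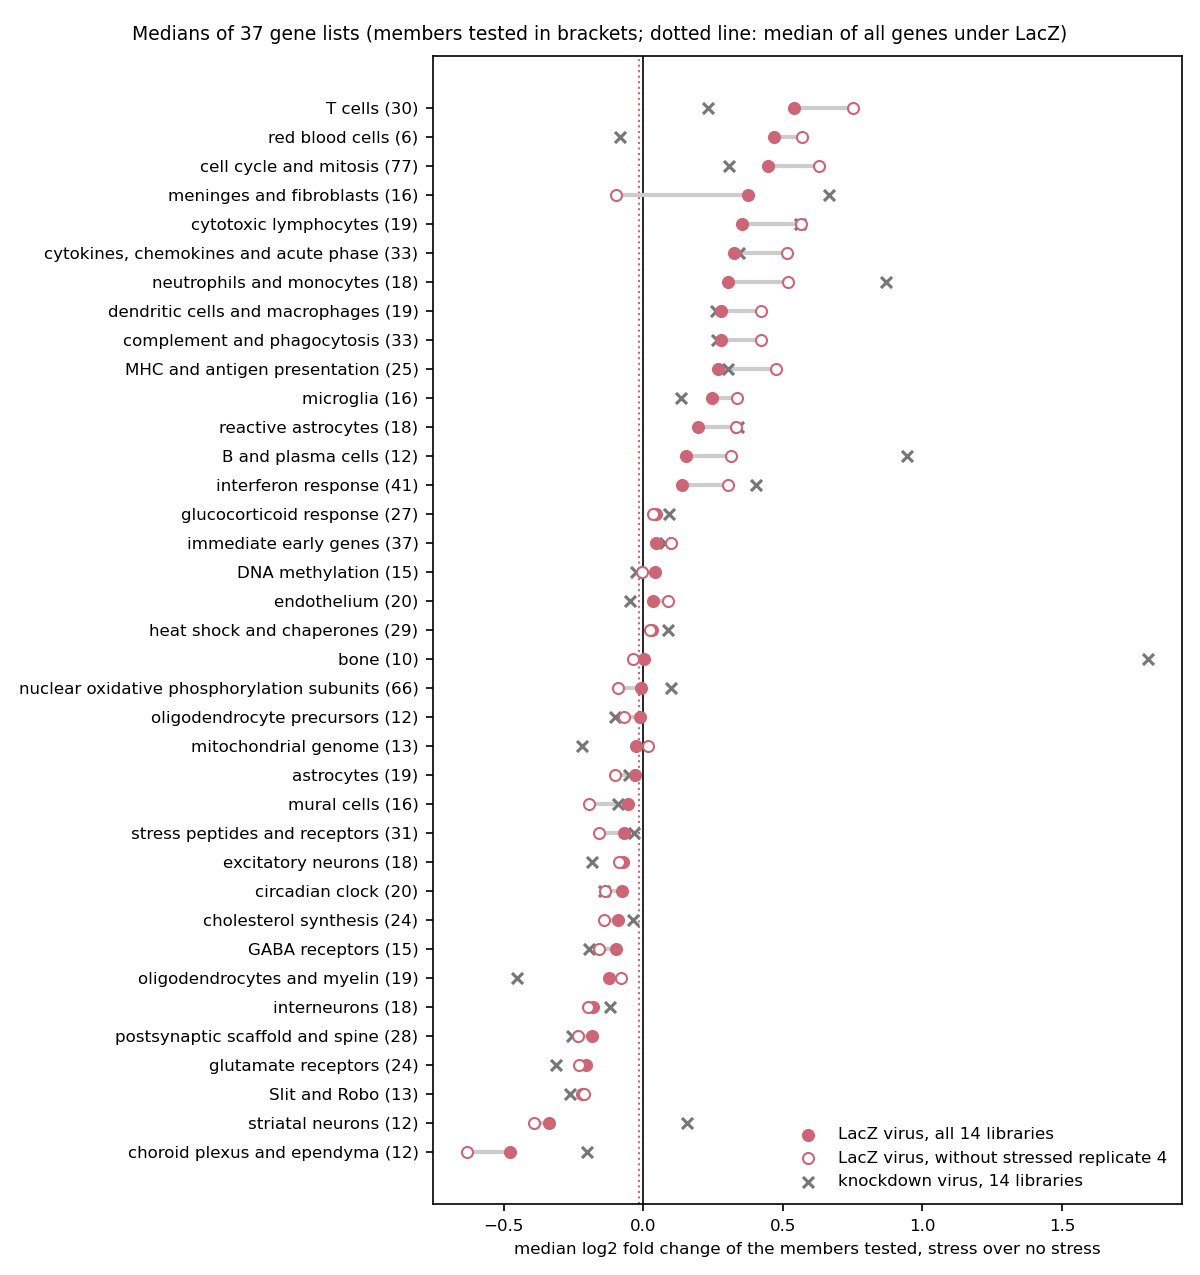
Median log2 fold change of stress over no stress for the tested members of 37 gene lists, under the LacZ virus with all 14 libraries, without stressed replicate 4, and under the knockdown virus. The T cell and cell cycle lists lie at 0.54 and 0.45, the glutamate receptor list at -0.21, and the meninges list goes from 0.38 to -0.10 without stressed replicate 4.

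Meningeal genes depended on stressed replicate 4 in the opposite sense. All 16 members tested lay above 0 (median 0.38), but 6 of 16 without that library (median -0.10). Its summed level of these genes was 383 CPM, against 37.1 to 177 CPM in the other 13. Ptgds, a prostaglandin synthase abundant in the meninges, had 219 CPM there and 1.04 to 75.5 CPM elsewhere, and its 1.23 ± 1.07 (SE) was -0.31 ± 1.01 without it. Lyve1, a marker of lymphatic vessels and border macrophages, had 2.38 CPM there against at most 0.831 CPM elsewhere. The part of the makeup of the punch in the low immune transcripts of this library was not tested.

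Targets of glucocorticoids did not differ beyond the spread between mice. Fkbp5, a co-chaperone that dampens the glucocorticoid receptor, had 28.1, 31.1 and 44.7 CPM as the lowest, median and highest without stress and 24.2, 36 and 41.5 CPM with stress. The groups overlapped over most of their range, and the log2 fold change was 0.05 ± 0.18 (SE) with a 95% interval from -0.30 to 0.39. Sgk1, a kinase induced by the hormone, had 49.6, 56.9 and 64.5 CPM without and 51.7, 63.5 and 73.9 CPM with stress, and 6 of 7 stressed libraries lay above the unstressed mean of log2 CPM. Its interval ran from -0.07 to 0.38 around 0.15 ± 0.12 (SE), and its adjusted p was 1.00. Tsc22d3, which encodes the leucine zipper protein GILZ, had 0.05 ± 0.18 (SE) with an interval from -0.31 to 0.40. The receptor gene Nr3c1 had -0.01 ± 0.28, or 0.06 ± 0.29 without stressed replicate 4, with a sign that turned in several alternatives. The mineralocorticoid receptor gene Nr3c2 had -0.34 ± 0.27, and Cdkn1a, a cell cycle inhibitor that the hormone induces, 0.34 ± 0.42. Of 27 genes of the glucocorticoid list 18 lay above 0 with a median of 0.05, and 14 with a median of 0.04 without stressed replicate 4. None was at an unadjusted p under 0.05 in either comparison.

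Immediate early genes, which neurons switch on soon after activity, had 24 of 37 members above 0 with a median of 0.05, or 0.10 without stressed replicate 4. Fos ran from 6.01 over 11.6 to 18.8 CPM without stress and from 7.00 over 13.3 to 17.5 CPM with stress, and its log2 fold change of 0.05 ± 0.28 (SE) turned below 0 when any of 5 libraries was left out. Arc, a regulator of synaptic strength, ran from 3.04 over 9.87 to 43.7 CPM and from 2.16 over 5.51 to 50.9 CPM. Its value of 0.44 ± 0.72 (SE) stood against a lower stressed median and became -0.14 without stressed replicate 1, the highest of all. Bdnf, a neurotrophin gene, had -0.01 ± 0.33, and Egr4 and Nr4a2, transcription factors of this group, had -0.30 ± 0.22 and -0.35 ± 0.36. Stress peptides and their receptors had 9 of 31 members above 0 (median -0.07, -0.16 without stressed replicate 4 and 0.04 without unstressed replicate 1). Crh, the releasing hormone that starts the hormonal stress response, ran from 0.783 over 1.6 to 4.46 CPM and from 1.08 over 2.06 to 4.01 CPM, with 0.21 ± 0.46 (SE). The oxytocin receptor gene Oxtr had -0.59 ± 0.38, or -0.18 without unstressed replicate 2, with an unstressed range of 2.35 to 15.2 CPM and a stressed range of 2.05 to 6.90 CPM. Pnoc, the precursor of nociceptin, had -0.30 ± 0.21, and all 7 stressed libraries lay below the unstressed mean of log2 CPM. Heat shock and chaperone genes had 21 of 29 above 0 (median 0.03) and clock genes 3 of 20 (median -0.08, or -0.14 without stressed replicate 4). Among the latter Npas2, a partner of the clock factor Bmal1, had -0.17 ± 0.18, and the nuclear receptor gene Rora -0.14 ± 0.14.

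**Figure D3:**
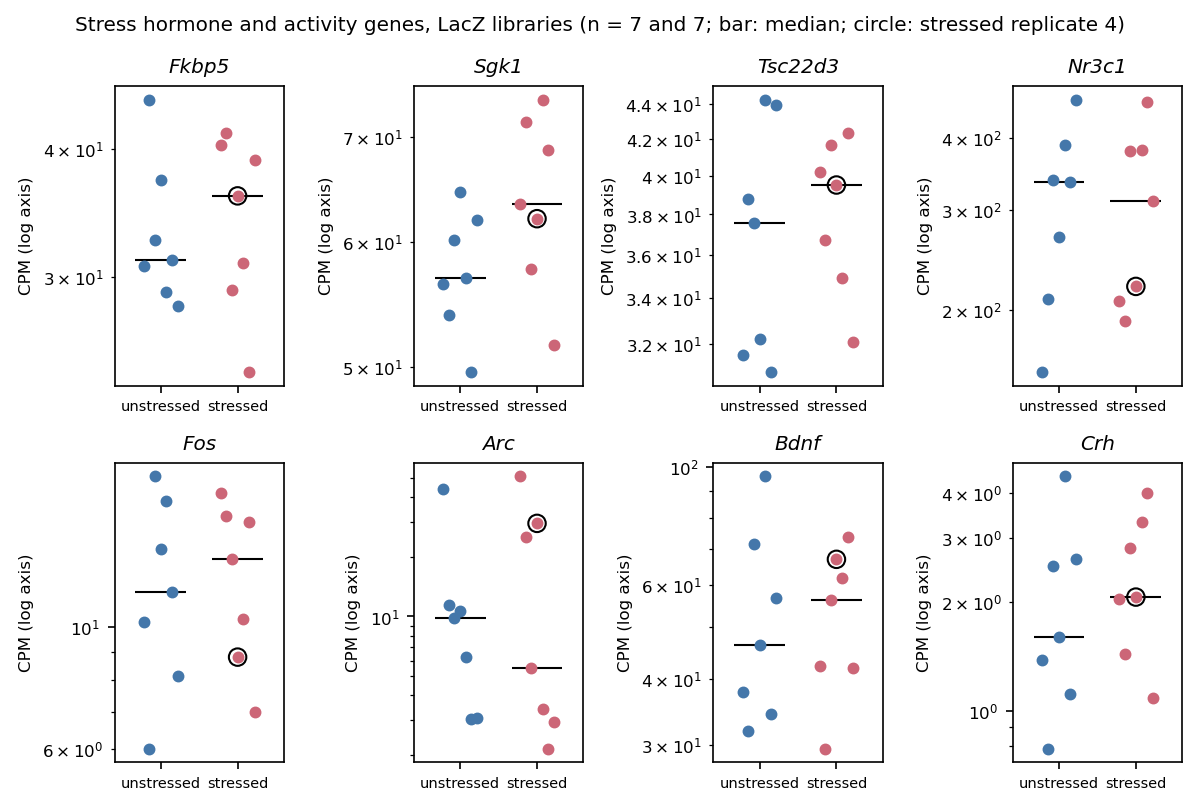
CPM on a log axis of 5 genes of the hormonal stress response (Fkbp5, Sgk1, Tsc22d3, Nr3c1, Crh) and 3 activity genes (Fos, Arc, Bdnf) in the 7 unstressed and 7 stressed LacZ libraries, with the group median as a bar and stressed replicate 4 circled. The groups overlap in each panel, and Arc has its highest value of 50.9 CPM in a stressed library although its stressed median is lower.

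Glutamate receptor genes lay below 0 as a group. All 24 subunits tested had a log2 fold change below 0, from -0.01 to -0.40 with a median of -0.21, and so they did without stressed replicate 4 (median -0.23). Over 25 alternatives the median stayed between -0.28 and -0.10. Grin3a (ENSMUSG00000039579, GRCm38 chromosome 4, 49661611 to 49845744), an NMDA receptor subunit that lowers calcium flow, had 71.3, 79.7 and 101 CPM as the lowest, median and highest without stress and 50.7, 68.2 and 85.3 CPM with stress. All 7 stressed libraries lay below the unstressed mean of log2 CPM, though the ranges overlapped. The log2 fold change was -0.28 ± 0.14 (SE), at an unadjusted p under 0.05 and an adjusted p = 1.00, and it was the 1 subunit at that level. Grid1, a delta subunit that joins the sides of the synapse, ran from 219 over 299 to 393 CPM and from 204 over 219 to 289 CPM, again with all 7 stressed libraries below that mean, and had -0.33 ± 0.17 (SE). Gria1, an AMPA receptor subunit, had medians of 694 and 550.1 CPM and -0.30 ± 0.17, and Grin2b, an NMDA subunit prominent in young synapses, -0.18 ± 0.15. The smallest difference was that of Grm2, a presynaptic metabotropic receptor gene, at -0.01 ± 0.62. Summed over the list, levels ran from 8373 over 12816 to 22581 CPM without stress and from 6985 over 10942 to 18050.5 CPM with stress, so the groups overlapped over most of their range. The log2 difference of this sum was -0.37 in titles to 10 and -0.18 in titles above 20.

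**Figure D4:**
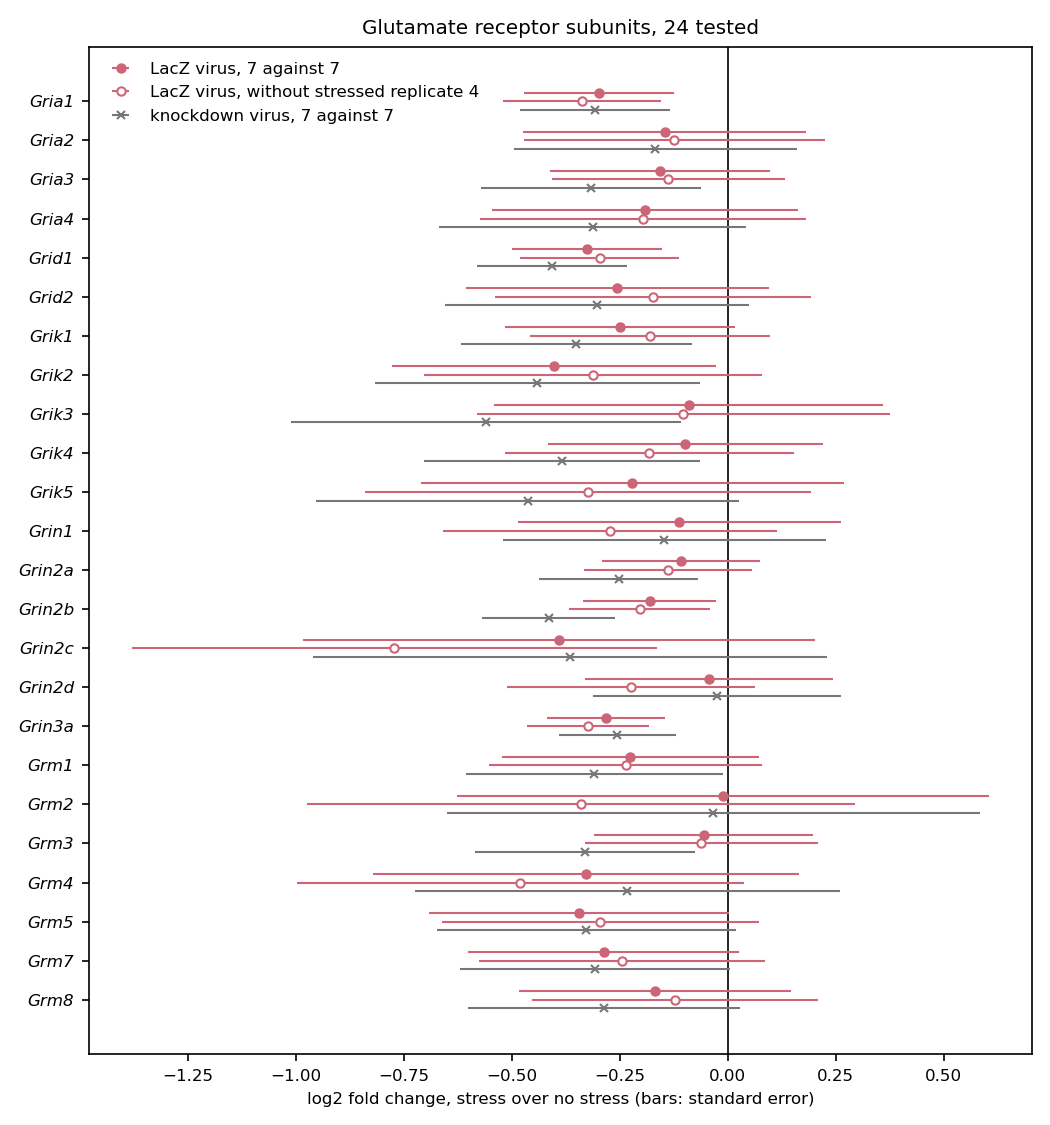
Log2 fold change of stress over no stress with its standard error for 24 glutamate receptor genes under the LacZ virus with all 14 libraries, without stressed replicate 4, and under the knockdown virus. Each point lies below 0, from -0.01 to -0.40 under the LacZ virus with all libraries, and most error bars reach 0.

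Other synaptic and neuronal lists leaned the same way. Postsynaptic scaffold and spine genes had 1 of 28 members above 0 (median -0.18), and 0 of 28 without stressed replicate 4 (median -0.23). The median was 0.13 without unstressed replicate 1. The member above 0 with all 14 libraries was Cfl1, the actin-severing protein cofilin, at 0.13 ± 0.46 (SE), while Dlgap2, a scaffold of the postsynaptic density, had -0.26 ± 0.19. GABA receptor genes had 2 of 15 above 0 (median -0.10, -0.16 without stressed replicate 4 and 0.01 with voomWithQualityWeights), with the subunit gene Gabra2 at -0.31 ± 0.36. Slit and Robo genes, ligands and receptors that guide axons, had 1 of 13 above 0 with a median of -0.22, or -0.21 without stressed replicate 4. This median stayed between -0.28 and -0.14 over the alternatives. The ligand gene Slit3 ran from 126 over 186 to 223 CPM without stress and from 95.7 over 135 to 169.6 CPM with stress, and 6 of 7 stressed libraries lay below the unstressed mean of log2 CPM. Its difference of -0.35 ± 0.23 (SE) was not at an unadjusted p under 0.05. Slit1 had -0.30 ± 0.43, and 0.07 without unstressed replicate 1, in which it was highest at 56.3 CPM. Slit2 had -0.28 ± 0.29, and the receptors Robo1 and Robo2 had -0.20 ± 0.23 and -0.26 ± 0.31. The member above 0 was Robo3, a receptor known from midline crossing, at 0.55 ± 0.45. Markers of excitatory neurons and of interneurons had 6 of 18 and 2 of 18 above 0 (medians -0.07 and -0.18). Without stressed replicate 4 their medians were -0.09 and -0.20. The excitatory median lay above 0 in 3 of 25 alternatives, up to 0.03 without unstressed replicate 7. Adarb2, an interneuron gene, had -0.46 ± 0.28 (-0.27 without unstressed replicate 7). Pvalb, the calcium buffer of fast-spiking interneurons, had 0.43 ± 0.38 (0.20 without stressed replicate 2). Myelin genes had 4 of 19 above 0 (median -0.12, -0.08 without stressed replicate 4 and 0.10 without unstressed replicate 6). Nuclear genes of oxidative phosphorylation had 30 of 66 above 0 (median -0.01), but 13 of 66 without stressed replicate 4 (median -0.09). This median lay above 0 in 10 of 25 alternatives, up to 0.12 without unstressed replicate 1.

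Gene length differed between some of these lists. Counts were taken over whole gene spans, introns included, and the median span was 348598 bp for glutamate receptor genes, 266325 bp for Slit and Robo genes and 17769 bp for T cell genes. Interneuron and myelin genes had median spans of 19371 bp and 16826 bp, with median log2 fold changes of -0.18 and -0.12. The myelin median was 0.10 without unstressed replicate 6. Of 2691 genes tested with spans over 100 kb, 22.4% lay above 0, with a median log2 fold change of -0.092. Of 5532 genes with spans under 10 kb, 52.7% lay above 0, with a median of 0.013. Without stressed replicate 4 the median of the long genes was -0.092 and that of the short genes turned to -0.030. The part of gene length in the values of the receptor and guidance genes was not tested. With the GC slope of each library as a covariate, chosen after the data were seen, medians were -0.17 for glutamate receptor genes, 0.73 for T cell genes and 0.44 for cell cycle genes.

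Several of the 12 genes with the smallest p that were higher with stress belong to none of the immune lists. Slc35g1 (ENSMUSG00000044026, GRCm38 chromosome 19, 38395980 to 38405607), of the solute carrier family, had 2.61, 4.23 and 5.41 CPM as the lowest, median and highest without stress and 4.24, 6.73 and 9.32 CPM with stress. All 7 stressed libraries lay above the unstressed mean of log2 CPM, and stressed replicate 4 was their median. Its log2 fold change was 0.56 ± 0.22 (SE), or 0.54 ± 0.24 without that library. Pmp22, a protein of compact myelin, ran from 3.86 over 6.91 to 7.81 CPM and from 5.98 over 8.52 to 9.88 CPM, with stressed replicate 4 highest. Its log2 fold change was 0.38 ± 0.17, or 0.34 ± 0.17 without that library, where it was not at an unadjusted p under 0.05. Nfatc2ip, which binds a transcription factor of T cell activation, had medians of 3.68 and 4.46 CPM and 0.33 ± 0.15. The other 4 had unstressed medians below 1 CPM. They were Atp2a1, a calcium pump of muscle, at 1.11 ± 0.47 (SE; 1.84 without unstressed replicate 1), Apof, an apolipoprotein gene, at 0.79 ± 0.35, Lmod3, an actin nucleator of muscle, at 0.67 ± 0.30, and Vmn2r96, a vomeronasal receptor gene, at 1.47 ± 0.63. Stressed replicate 5 was the highest library in 5 of the 12. Without stressed replicate 4 all 12 lay on the same side and 10 were at an unadjusted p under 0.05. The 12 were chosen by p from these same libraries, so this was largely fixed by the choice and is no separate check.

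The 12 genes with the smallest p that were lower with stress were mostly scarce, and 8 of them had their highest value in 1 unstressed library, replicate 6. Dlx1as, an RNA transcribed opposite to the interneuron gene Dlx1, had the highest median and ran from 3.80 over 5.03 to 6.36 CPM without stress and from 2.40 over 3.86 to 5.01 CPM with stress, with all 7 stressed libraries below the unstressed mean of log2 CPM. The log2 fold change was -0.44 ± 0.16 (SE), or -0.48 ± 0.17 without stressed replicate 4. Counting used no strand, and 68.2% of the span of Dlx1as lies in other genes. Of genes wholly inside others, 99.9% were at 0 in all 28 libraries, so reads in shared stretches appear to have been left out. The count of Dlx1as would then come from the rest of its span. Tdrd12, of the germ line piRNA pathway, ran from 1.02 over 1.37 to 1.86 CPM and from 0.754 over 0.935 to 1.34 CPM, again with all 7 below that mean, and had -0.48 ± 0.19. Several of the others are known from cilia. Dnah12, a heavy chain of the ciliary motor dynein, ran from 0.899 over 2.04 to 11.6 CPM without stress and from 1.02 over 1.38 to 2.60 CPM with stress, where the 11.6 CPM were unstressed replicate 6. Its -1.02 ± 0.44 (SE) was -0.15 without that library. The same omission took Ttc29, a protein of sperm flagella, from -1.64 to -0.29, and Cdhr3, a cadherin of ciliated epithelium, from -0.73 to -0.25. Lrrc36 went from -0.80 to -0.31, Rp1, a microtubule protein of photoreceptors, from -0.84 to -0.47, and Dsc3, a desmosomal cadherin, from -1.29 to -0.72. Markers of choroid plexus and ependyma, which bear motile cilia, summed to 26.7 CPM in that library and to 4.57 to 11.6 CPM in the other 13. Their list had 4 of 12 members above 0 (median -0.48), and 4 of 13 without stressed replicate 4 (median -0.63). With a CPM of at least 1 in 7 libraries, which keeps fewer members, the median was 0.30. Striatal markers had 1 of 12 above 0 (median -0.34). The median was -0.39 without stressed replicate 4 and -0.16 without unstressed replicate 6. Isl1, a striatal transcription factor, had 4.23 CPM in unstressed replicate 6 and at most 0.617 CPM elsewhere. Tfap2d, a transcription factor gene, was highest in unstressed replicate 4 at 1.93 CPM and had -1.33 ± 0.54 (SE), -1.91 ± 0.55 without stressed replicate 4 and -0.59 without unstressed replicate 4. Gcc2, a golgin that tethers vesicles, had -0.87 ± 0.33, or -0.55 without unstressed replicate 1. Tmbim7 had -0.88 ± 0.35, and Calml4, a calmodulin-like protein, -0.57 ± 0.24, or -0.37 without unstressed replicate 6. All 3 had medians under 1 CPM.

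Omitting stressed replicate 4 brought 4 further genes on each side among those with the smallest p. The higher ones were Sh2d1a, Cks1b and Cep55, given above, and Xlr4a, a gene of a lymphocyte-regulated family on the X chromosome. Xlr4a had stressed values from 0.159 over 2.56 to 6.64 CPM, the lowest in stressed replicate 4, against unstressed values up to 2.28 CPM, and log2 fold changes of 0.98 ± 0.49 (SE) with and 1.19 ± 0.42 without that library, or 0.58 without stressed replicate 5. The lower ones were Scn3b, a beta subunit of sodium channels, Tekt1, a tektin of cilia, and C8b and Prss54 at under 1 CPM. Scn3b ran from 88.8 over 112 to 129 CPM without stress and from 67.6 over 85.5 to 136 CPM with stress, with stressed replicate 4 highest of all 14. Its value was -0.24 ± 0.13 (SE), or -0.35 ± 0.13 without that library, with an adjusted p = 1.00 for both.

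**Figure D5:**
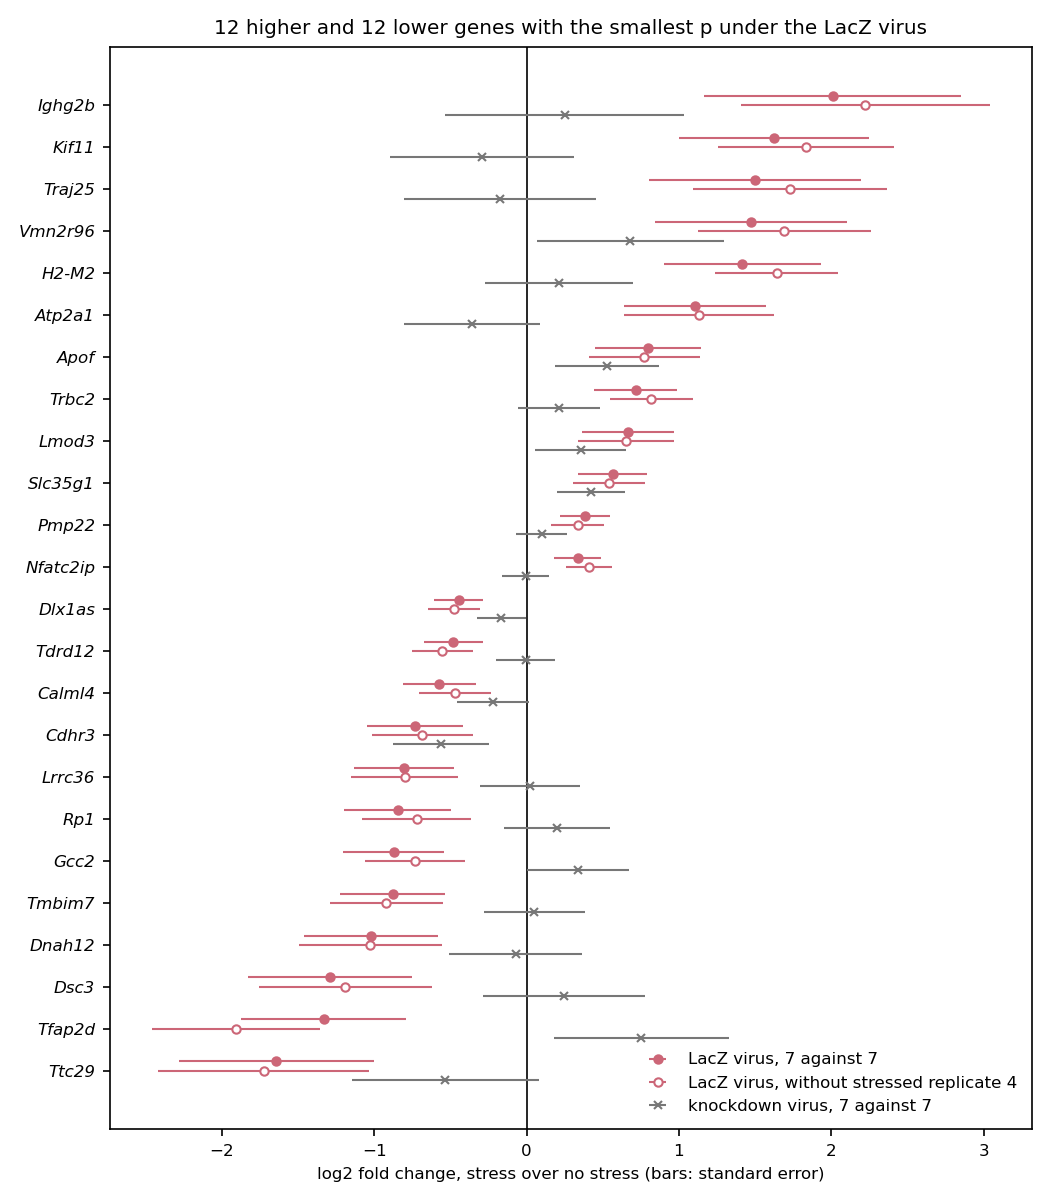
Log2 fold change of stress over no stress with its standard error for the 12 higher and 12 lower genes with the smallest p under the LacZ virus, beside the same genes without stressed replicate 4 and under the knockdown virus. The genes were chosen by the LacZ values, and 8 of the 12 higher and 6 of the 12 lower genes have the same sign under the knockdown virus.

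The same stress was measured in 14 other mice, given the knockdown virus, which share no library with the LacZ comparison. There 140 genes were higher (0.73%) and 203 lower (1.06%) at an unadjusted p under 0.05, and 47.5% of genes lay above 0. None of the 24 genes with the smallest p under the LacZ virus was at that level there. The difference of the stress effect between viruses passed for 0 of 19171 genes (0%), with 68 at an unadjusted p under 0.05 (0.355%), of which 5 were among the 24. The 24 were chosen by their LacZ values, which enter this difference. A raised share among them is therefore expected from the choice alone and shows no difference between viruses. Kif11 had -0.29 ± 0.61 (SE) under the knockdown virus and differed from the LacZ value by 1.91 ± 0.87, with an adjusted p = 1.00. The difference was 1.46 ± 0.65 for Atp2a1, -2.09 ± 0.79 for Tfap2d, -1.21 ± 0.47 for Gcc2 and -1.04 ± 0.49 for Rp1. Trbc2 had 0.21 ± 0.27 and Slc35g1 0.42 ± 0.22 under the knockdown virus, differing from the LacZ values by 0.50 ± 0.38 and 0.14 ± 0.32, which did not pass and does not show that the values were alike.

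As lists, cell cycle genes had 72 of 77 members above 0 under the knockdown virus (median 0.31), T cell genes 28 of 30 (median 0.23) and cytotoxic genes 16 of 19 (median 0.56). Glutamate receptor genes again had all 24 members below 0, with a median of -0.31, and Slit and Robo genes 12 of 13 (median -0.26). Both lists hold long genes, with median spans of 348598 and 266325 bp. Under the LacZ virus 22.4% of genes over 100 kb lay above 0, and that share is not given for the knockdown virus. The part of gene length in these values was not tested. Grin3a had -0.26 ± 0.14 (SE) and Grid1 -0.41 ± 0.17, close to their LacZ values, and Fkbp5 and Sgk1 had 0.16 ± 0.18 and 0.01 ± 0.12. Bone genes, with a median of 0.0042 under the LacZ virus, had 1.81 under the knockdown virus, and 6 of 10 were at an unadjusted p under 0.05 for the difference between viruses. Of the 24 genes and the lists described, none passed an adjusted p for that difference.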

How the data were processed

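Total RNA of 28 prefrontal cortex samples was sequenced in 4 groups of 7. The deposited values are raw counts of fragments per gene, which featureCounts 1.6.2 summed over the full span of each gene in Ensembl release 90, with no strand option and after removal of duplicates, per the file headers. HISAT2, Subread and DESeq2 were named with GRCm38, per the submitters' processing notes. A whole span includes introns, and genes lying inside other genes were nearly all at 0, so 48 list members were lost.

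Genes were kept by filterByExpr, scaled by TMM factors and compared in edgeR 4.0.16 (glmQLFTest, robust, R 4.3.3) over all 28 libraries, with 1 coefficient per group and Benjamini-Hochberg adjustment, which left 19171 genes, or 19320 without LacZ stressed replicate 4. The script was tested on simulated data. Differences in mean log2 CPM used a prior count of 2. Alternatives were other scaling factors and filters, DESeq2 1.42.0, voomWithQualityWeights (limma 3.58.1), sva 3.50.0, covariates, other thresholds and each LacZ library left out. Named genes were fixed stress, Slit, T cell and cell cycle genes, the 12 smallest p in each direction, 2 per direction and list, and 4 per direction without replicate 4. Predicted genes were left out of the choice by p. Gria1, Grin2b, Grm2, Eomes and Thy1 were named after their values were seen. The comparison, 37 lists (825 of 914 members tested) and named genes were chosen with earlier results of these data known.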

Additional observations from a re-analysis of the deposited data

Results flagged for a closer look

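Of 106 groups of 7 libraries checked, 7 held a library farther from the others, relative to the range of its group in log2 CPM, than Dixon's 95% critical value allows. Chance flags about 1 in 20 groups. LacZ stressed replicate 4 was the lowest stressed library in 5 of them, with gap-to-range ratios of 0.587 for Cd8a (0.0453 CPM), 0.678 for Gzmb (0.408 CPM), 0.612 for Mki67 (6.89 CPM), 0.724 for H2-M2 (0.000 CPM) and 0.733 for Cep55 (0.295 CPM). LacZ unstressed replicate 6 was the highest unstressed library in the other two, with 0.782 for Calml4 (1.71 CPM) and 0.678 for Dnah12 (11.6 CPM).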

How the results depend on the processing

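Genes called stayed at 0 with every alternative for the LacZ comparison. The number at an unadjusted p under 0.05, 77, was 123 with DESeq2, 681 with voomWithQualityWeights, 647 with no count filter, 31 with a CPM of at least 1 in 7 libraries, 263 with the mitochondrial share, 201 with title numbers above 20 and 451 with surrogate variables as covariates, 359 with the GC slope (chosen after seeing the data), and 52 to 214 with a library left out, highest without LacZ stressed replicate 4. Without that library it was 214, and 1111 with voomWithQualityWeights and 865 with the GC slope. Its omission also turned the difference in total counts to -0.235 M. The causes were not tested. Of 512 values of named genes, 11 turned sign: Robo1 (0.0801), Fkbp5 (-0.0441), Nr3c1 (0.15), Fos (-0.30), Arc (-0.64) and Bdnf (0.0832) with voomWithQualityWeights, Nr3c1 (0.0148), Bdnf (0.0803) and Gzmb (-0.21) with surrogate variables, and Nr3c1 (0.0022) and Bdnf (0.0295) with the GC slope. With a library left out, Slit1 ranged from -0.47 to 0.0679, Nr3c1 from -0.13 to 0.12, Fos from -0.0722 to 0.18, Arc from -0.14 to 1.22 and Bdnf from -0.10 to 0.20. Of the 37 list medians, 9 kept their sign in all 25 alternatives. They were those of T cell, cell cycle, cytotoxic, glutamate receptor, Slit and Robo, microglial, interneuron, striatal and red blood cell genes. The microglial median fell to 0.002 and the cytotoxic one to 0.03. No paired analysis was possible because the labels give the groups no shared replicate numbers. Low counts limit genes under 1 CPM.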
